A study of Sus scrofa with 9 samples.

Results

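Of the 1313 small RNA names listed across pig eggs, embryos and sperm, 222 began with PC-5p, and these 222 names were chosen by that prefix alone. The table held 227 rows for them, because 5 names stood on repeated rows with identical counts, and the rows of a name were summed. They formed 165 distinct rows of counts. The remaining names comprised 281 that began with PC-3p, 343 with the pig prefix ssc and 467 with the prefix of another species.

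Small RNA was sequenced from 3 untreated groups of porcine (Sus scrofa) material with 3 libraries each. MII oocytes were mature unfertilized eggs, obtained by in vitro maturation of oocytes from the ovaries of postpubertal gilts and stripped of cumulus cells. PN embryos were fertilized eggs at the pronuclear stage, made by in vitro fertilization with boar semen. Sperm were purified from fresh semen of adult boars. The study's methods name Landrace boars for in vitro fertilization and Large White boars for the sequenced sperm. The study extracted RNA from large pools of oocytes and embryos, and the sources used here do not say whether the 3 libraries of a group came from separate pools or animals. The p-values therefore measure the spread between these libraries, which may be technical.

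MicroRNAs are cut from hairpin precursors, and the labels 5p and 3p name the arm of the hairpin from which the mature strand is taken. Sequencing of a cell's small RNA also yields sequences that match no catalogued microRNA, and analysis pipelines list some of these as predicted candidates when the surrounding genome can fold into a hairpin. Small RNA libraries of gametes also contain fragments of tRNA and rRNA and other small RNA classes, and a name alone does not tell these apart from microRNAs. The meaning of the prefix PC was not stated in the sources used here. Without their sequences, the PC-5p names were assigned to no locus, hairpin or function here.

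Library totals rose without overlap from MII oocytes (289183 to 381674 counts) to PN embryos (422630 to 771001) and sperm (1640492 to 2455102), so depth and group cannot be told apart. Levels are given as CPM, the count scaled to a library total of 1000000. Low counts were listed irregularly. Among the 578 PC-5p values above 0, 89 equalled 5, 13 lay below 5 and 0 equalled 1. A name listed at 0 may therefore have had up to about 5 counts, a floor that averaged 15.7 CPM for MII oocytes, 8.50 for PN embryos and 2.66 for sperm. Folds against a group listed at 0 are lower bounds computed against that floor. The fixed marker lists followed the labels only in part. The male germ cell markers miR-34c and miR-449a summed to 89433 to 93580 CPM in sperm and to at most 1584 CPM elsewhere. The markers miR-371-5p and miR-302 of oocytes and early embryos were at 0 in sperm, and miR-302 was also at 0 in MII oocytes. All 5 follicle cell markers were listed in every group, with sums of 851 to 1360 CPM for MII oocytes, 1074 to 1172 for PN embryos and 703 to 772 for sperm. Blood markers summed to 166 to 314, 837 to 876 and 259 to 369 CPM in the same order, with miR-223 at 0 in MII oocytes. Epithelial markers summed to 1359 to 1690, 1372 to 1556 and 6391 to 6905 CPM, with miR-429 at 0 outside sperm. The part of other cells in the results was not tested.

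PC-5p names made up a small share of the counts, and that share was lower in sperm than in oocytes and embryos. It was 0.393%, 0.366% and 0.397% in the MII oocyte libraries, 0.423%, 0.454% and 0.477% in the PN embryo libraries, and 0.181%, 0.192% and 0.183% in the sperm libraries. None of the 3 groups overlapped another. The means were 0.385% ± 0.0168 in MII oocytes, 0.452% ± 0.0268 in PN embryos and 0.185% ± 0.00566 in sperm (SD, n = 3). The sperm mean was 0.480 times the MII oocyte mean and 0.410 times the PN embryo mean, and the PN embryo mean was 1.17 times the MII oocyte mean. For each of the 3 differences the two-sided exact permutation test gave p = 0.1 (adjusted p = 0.1), the smallest p that 3 libraries against 3 allow. The difference between PN embryos and MII oocytes rested in part on a single name, PC-5p-8558_472. Without it the difference fell from 0.0660 to 0.0316 percentage points and the groups overlapped (exact permutation p = 0.3), an alternative added after the data were seen.

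The PC-3p names showed this pattern only in part. Their share was 0.685% ± 0.0438 in MII oocytes, 0.824% ± 0.0410 in PN embryos and 0.664% ± 0.0254 in sperm (SD, n = 3). As for PC-5p, every PN embryo library was above every MII oocyte and sperm library (exact permutation p = 0.1 for each, adjusted p = 0.15). The sperm and MII oocyte libraries, however, overlapped for PC-3p (exact permutation p = 0.7, adjusted p = 0.7). The counts of PC-5p per count of PC-3p were 0.564 ± 0.0355 in MII oocytes, 0.548 ± 0.0272 in PN embryos and 0.279 ± 0.00439 in sperm (SD, n = 3). The sperm libraries lay between 0.275 and 0.284, below every other library, of which the lowest was at 0.525. The exact permutation p was 0.1 for sperm against each of the other groups (adjusted p = 0.15). For PN embryos against MII oocytes it was 0.6 (adjusted p = 0.6). This ratio was chosen after the shares had been seen.

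**Figure D1:**
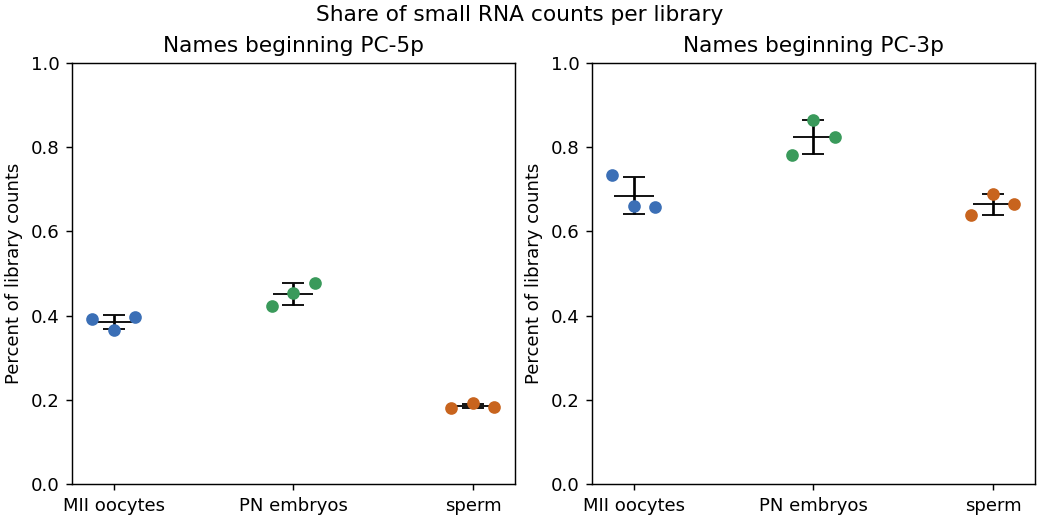
Percent of each library's counts carried by names beginning PC-5p (left) and PC-3p (right); points are libraries, and bars give the mean and SD of 3 libraries. The sperm libraries sit between 0.181% and 0.192% for PC-5p, below all oocyte and embryo libraries, whereas for PC-3p sperm and MII oocytes overlap.

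Most PC-5p names were listed either in sperm or in oocytes and embryos, and not in both. Of the 222 names, 72 were listed in sperm libraries only, 16 in MII oocyte libraries only and 70 in PN embryo libraries only. Another 49 were listed in MII oocyte and PN embryo libraries only. In this order these were 32.4%, 7.21%, 31.5% and 22.1% of PC-5p names, against 27.3%, 4.34%, 20.6% and 13.6% of all names. Only 15 names (6.76%) were listed both in sperm and in an oocyte or embryo library, against 447 (34.0%) of all 1313 names. The PC-3p names had the same share, 19 of 281 (6.76%). Among the names that passed the filter on low counts used for testing, the corresponding numbers were 11 of 51 (21.6%) and 382 of 587 (65.1%). A name could pass that filter through a single group, and the names compared were not matched in level. These numbers therefore do not remove the part of depth or low counts in the listing. All 9 libraries listed 3 of the PC-5p names (1.35%, against 2.49% of PC-3p names and 17.5% of all names), namely PC-5p-10850_362, PC-5p-15282_245 and PC-5p-20628_176. In counts, the 72 names listed in sperm only carried between 85.0% and 85.4% of the PC-5p counts of each sperm library. The 135 names absent from sperm carried from 87.8% to 89.8% of PC-5p counts in the MII oocyte libraries and from 86.1% to 87.6% in the PN embryo libraries.

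**Figure D2:**
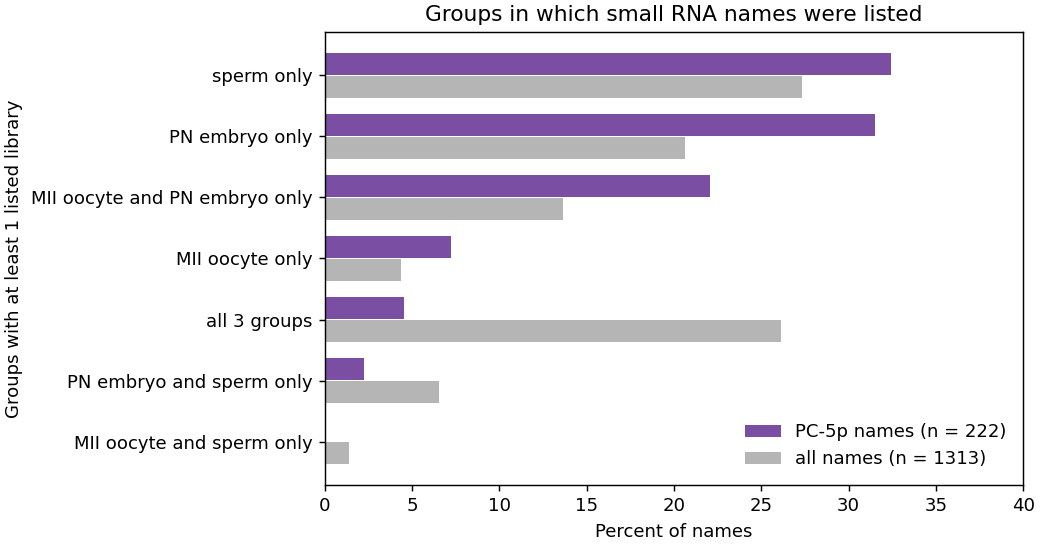
Percent of PC-5p names (n = 222) and of all names (n = 1313) listed in each combination of groups, a group counting when at least 1 of its 3 libraries lists the name. Names of all 3 groups make up 4.50% of PC-5p names and 26.1% of all names.

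The number of PC-5p names per library was 55, 37 and 43 in MII oocytes, 57, 83 and 93 in PN embryos, and 64, 74 and 72 in sperm. Within MII oocytes and PN embryos the library with the most counts also listed the most PC-5p names, and the part of depth in these numbers was not tested. In every library of a group, 23 names were listed for MII oocytes, 40 for PN embryos and 52 for sperm. These were 10.4%, 18.0% and 23.4% of PC-5p names, against 26.8%, 36.6% and 44.9% of all names. With a minimum of 20 CPM in every library the numbers were 20, 24 and 11. The order of the groups changed with this minimum, since sperm had the most names without it and the fewest with it.

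Names found in every library of 1 group and in no other library were mostly sperm names. The same held over all names, with 214 for sperm, 29 for PN embryos and 1 for MII oocytes. There were 41 such PC-5p names for sperm (18.5% of PC-5p names, against 16.3% of all names). Their mean levels ran from 3.51 to 446 CPM, with a median of 12.4 CPM. For PN embryos there were 3 (1.35%, against 2.21%), namely PC-5p-8558_472, PC-5p-41941_81 and PC-5p-90309_31, and for MII oocytes 0. A further 16 names (7.21%, against 6.09% of all names) were listed in all 6 MII oocyte and PN embryo libraries and in no sperm library. The names PC-5p-17700_209 and PC-5p-93335_30 (0.90%, against 1.98%) were listed in every PN embryo and sperm library and in no MII oocyte library. Many names were seen once: 86 of the 222 (38.7%, against 24.3% of all names) were listed in a single library. Of these, 73 had counts identical to those of another name. With such low counts, a chance match of small whole numbers and 1 set of reads listed under several names cannot be told apart.

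A few names carried most of the counts. The 5 most abundant names of each group held 63.0% to 70.4% of PC-5p counts in MII oocytes, 55.2% to 61.2% in PN embryos and 53.5% to 59.3% in sperm. In sperm the leading pair alone held 43.6% to 49.8%. Against all names these levels were moderate. PC-5p-2618_1845 ranked 83rd of the 597 names listed in MII oocytes, PC-5p-4084_1104 ranked 89th of 879 in PN embryos, and PC-5p-3381_1379 ranked 130th of 806 in sperm.

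The oocyte and embryo names were led by 4 that were listed in all 6 of those libraries and at 0 in every sperm library. PC-5p-2618_1845 was at 789, 825 and 792 CPM in MII oocytes and at 632, 561 and 533 CPM in PN embryos. Every PN embryo library was below every MII oocyte library, with means of 802 ± 20.4 and 575 ± 50.9 CPM (SD, n = 3). Its log2 fold change of -0.56 ± 0.11 (SE) passed the adjusted p (edgeR, q = 0.00708) but not the minimum fold change of 1 on the log2 scale, so it was not called.

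PC-5p-4084_1104 was at 540, 625 and 685 CPM in MII oocytes and at 698, 696 and 754 CPM in PN embryos. The PN embryo libraries were all higher, by a log2 fold change of 0.15 (edgeR, q = 0.440). PC-5p-12024_322 was at 435, 344 and 463 CPM in MII oocytes and at 495, 532 and 564 CPM in PN embryos, again without overlap (edgeR, q = 0.178). PC-5p-6902_607 was at 514, 538 and 460 CPM in MII oocytes and at 452, 416 and 415 CPM in PN embryos. Its PN embryo libraries were all lower, and the difference missed the threshold (edgeR, q = 0.0918). In the order of mean levels in MII oocytes, each of the pairs PC-5p-2618_1845 and PC-5p-4084_1104, and PC-5p-4084_1104 and PC-5p-6902_607, had libraries that did not overlap. PC-5p-6902_607 and PC-5p-12024_322 overlapped, at 460 to 538 and 344 to 463 CPM.

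All 4 were called lower in sperm. PC-5p-2618_1845 was at least 302-fold lower in sperm than in MII oocytes and at least 217-fold lower than in PN embryos. For the other 3 the bounds against MII oocytes were 232-fold for PC-5p-4084_1104, 190-fold for PC-5p-6902_607 and 156-fold for PC-5p-12024_322. PC-5p-60473_52, the sixth most abundant name of MII oocytes, varied more. This repeated name was summed over 2 rows with identical counts (294 counts, against 147 for 1 row), and its rank depended on that sum. It was at 44.5, 104 and 145 CPM in MII oocytes, at 82.8, 115 and 115 CPM in PN embryos and at 0 in sperm, so that oocytes and embryos overlapped.

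Across the 16 names listed in all oocyte and embryo libraries but not in sperm, levels in MII oocytes and PN embryos were of similar size. The ratio of the PN embryo mean to the MII oocyte mean ran from 0.397 to 1.48 with a median of 0.949. It was above 1 for 7 names and below 1 for 9, and only PC-5p-2618_1845 passed q under 0.05 (edgeR).

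**Figure D3:**
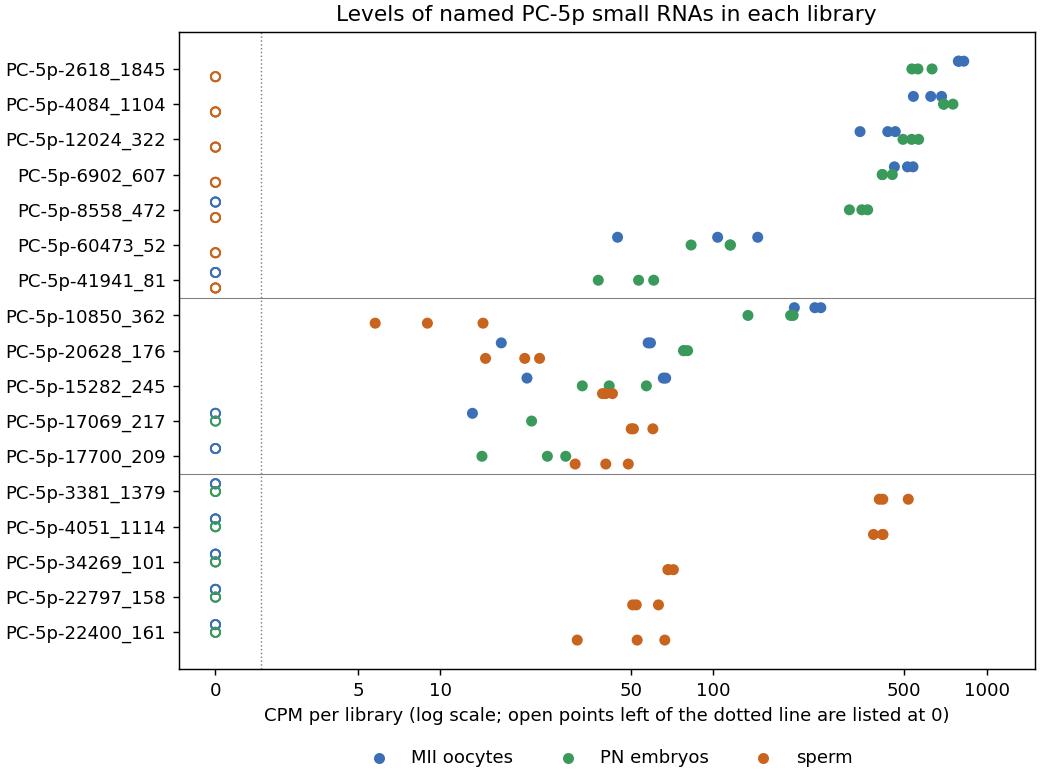
Level of the named PC-5p small RNAs in each library in CPM (log scale); colours give the group, and open points left of the dotted line are libraries listed at 0. The horizontal lines separate names absent from sperm (top), names listed in sperm and in oocytes or embryos (middle) and names listed in sperm only (bottom).

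Setting PN embryos against MII oocytes asks which small RNAs differ after fertilization. Of the 222 names, 51 passed the filter on low counts, and these carried 84.0% of PC-5p counts. The other 171 were not tested, with at most 56 counts in any library. Among the 51, 5 were called higher and 0 lower in PN embryos. Of all 587 names tested, 11.2% were called higher and 1.7% lower. At an unadjusted p under 0.05 there were 10 PC-5p names (19.6%), against 35.6% of all names tested. Both groups were listed at 0 for 11 of the 51 PC-5p names and for 78 of all 587. Such names passed the filter through sperm alone and could neither be called nor separate the groups. The 11 PC-5p names had a fitted log2 fold change of 0. The PC-5p and background numbers of this comparison are therefore not on an equal footing. The DESeq2 Wald test made the same 5 calls and called PC-5p-48397_68 lower, as did a filter of at least 10 counts in 3 libraries. Fitting only PN embryo and MII oocyte libraries left 3 names called higher and again called PC-5p-48397_68 lower. It was also called lower without the second MII oocyte library. In the main fit its log2 fold change was -1.415, without overlap (edgeR, q = 0.0672). The libraries of the groups did not overlap for 16 of the 51, against 39.5% of all names tested. The median log2 fold change of the 51 was 0, against 0.08 for all names. With groups listed at 0 set to the floor it was 0.16 over 40 names with a ratio, against 0.18 for all names.

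PC-5p-8558_472 was the most abundant of the 5 names called higher. It was listed at 133, 243 and 283 counts in the PN embryo libraries, or 315, 349.5 and 367 CPM, and at 0 in the other 6 libraries. Its mean of 344 ± 26.6 CPM (SD, n = 3) was at least 21.9-fold higher than in MII oocytes (edgeR, q = 4.37e-05) and at least 129-fold higher than in sperm (edgeR, q = 3.47e-07). Of the 29 names of any kind listed in every PN embryo library and in no other, it was the next most abundant after mmu-mir-6236-p5_1ss12CG, at 413 CPM. PC-5p-41941_81 had the same pattern at a lower level, with 37.9, 60.4 and 53.2 CPM in PN embryos and 0 elsewhere. It was at least 3.22-fold higher than in MII oocytes (edgeR, q = 0.00330). Both PC-5p-8558_472 and PC-5p-41941_81 passed the filter through the PN embryo libraries alone, the group in which they were high.

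PC-5p-17700_209 was at 0 in MII oocytes, at 14.2, 28.8 and 24.6 CPM in PN embryos and at 48.8, 31.2 and 40.3 CPM in sperm. It was the only PC-5p name called higher than in MII oocytes both in PN embryos (at least 1.44-fold, edgeR, q = 0.00280) and in sperm (at least 2.55-fold, edgeR, q = 8.33e-05). These 2 comparisons share the MII oocyte libraries, in which the floor was 13.1 to 17.3 CPM. The lowest PN embryo library, with 6 counts, lay within that range. The name passed the filter through its sperm libraries, and it was not tested when only PN embryo and MII oocyte libraries were fitted. Every sperm library was above every PN embryo library, with a log2 fold change of 0.91 ± 0.34 (edgeR, q = 0.0300), which fell short of the minimum fold change. In 10 alternatives it passed that minimum, with log2 fold changes of up to 1.21 (without the second sperm library).

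The other two called names fell outside the naming rule and are given because the count is small. PC-5p-59139_54 was listed at 6, 5 and 0 counts in MII oocytes, at 23, 46 and 77 in PN embryos and at 0 in sperm. Its means of 73.5 CPM (PN embryos) and 10.8 CPM (MII oocytes) gave a log2 fold change of 2.65 ± 0.67 (edgeR, q = 0.0216). PC-5p-40007_85 was listed at 0, 0 and 5 counts in MII oocytes, at 16, 17 and 40 in PN embryos and at 33, 37 and 35 in sperm. Its log2 fold change between PN embryos and MII oocytes was 2.76 ± 0.87 (edgeR, q = 0.0436), from means of 38.1 and 5.76 CPM, and it was not called between sperm and MII oocytes (q = 0.0736). Without the third PN embryo library neither of these 2 names was called, and 3 of the 5 calls were left. The call of PC-5p-40007_85 was also lost without the first or the second MII oocyte library, the first PN embryo library or any 1 of the sperm libraries.

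**Figure D4:**
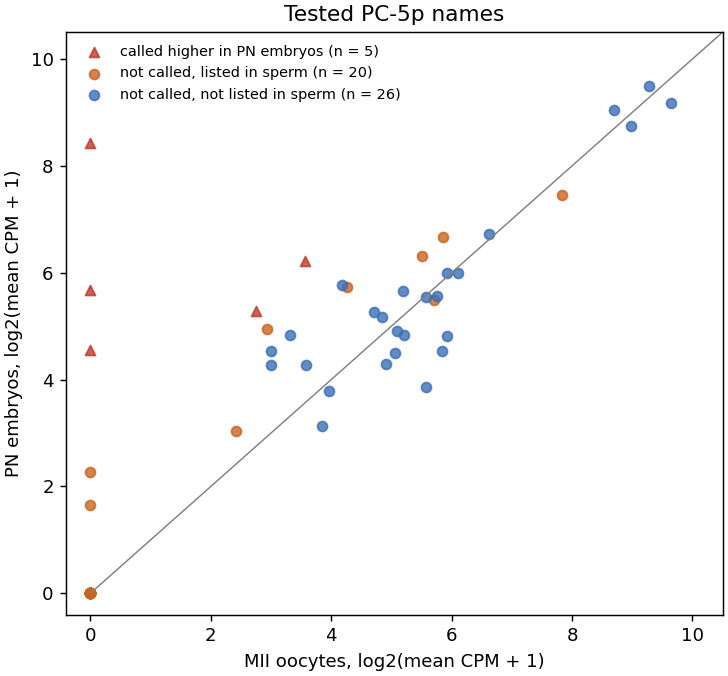
Mean level of the 51 tested PC-5p names in MII oocytes and PN embryos, both as log2(mean CPM + 1), with the line of equal level. The 5 called names lie above the line, 3 of them at 0 in MII oocytes, and 11 names listed in sperm only share the point at 0.

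The sperm names were led by PC-5p-3381_1379 and PC-5p-4051_1114, both at 0 in all 6 oocyte and embryo libraries. PC-5p-3381_1379 was listed at 848, 723 and 994 counts in sperm, or 517, 417 and 405 CPM. PC-5p-4051_1114 was at 386, 418 and 416 CPM. Their means of 446 ± 61.5 and 407 ± 18.2 CPM (SD, n = 3) came from libraries that overlapped. PC-5p-3381_1379 was at least 28.4-fold higher than in MII oocytes (edgeR, q = 2.97e-06) and at least 52.5-fold higher than in PN embryos (q = 9.43e-07). For PC-5p-4051_1114 the bounds were 25.9-fold and 47.8-fold. Both names, like the names below at 0 outside sperm, passed the filter through the sperm libraries alone.

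The next sperm names were several times less abundant. PC-5p-34269_101 was at 71.3, 68.1 and 68.4 CPM in sperm and at 0 elsewhere, at least 4.41-fold higher than in MII oocytes and at least 8.15-fold higher than in PN embryos. PC-5p-22797_158 was at 50.6, 62.9 and 52.1 CPM and PC-5p-22400_161 at 31.7, 66.3 and 52.5 CPM, both at 0 elsewhere, and their libraries overlapped. PC-5p-17069_217 was at 50.0, 60.0 and 50.9 CPM in sperm, and it was also listed at 13.1 CPM in 1 MII oocyte library and at 21.6 CPM in 1 PN embryo library. It was called higher in sperm than in MII oocytes, with a log2 fold change of 3.44 ± 1.09 (edgeR, q = 0.0129), and than in PN embryos, by 2.89 ± 0.86 (edgeR, q = 0.00854). Each of these values hung on the 1 library outside sperm that listed the name. Without the first MII oocyte library the log2 fold change against MII oocytes was 8.87, and without the second PN embryo library that against PN embryos was 8.78, both against a group then listed at 0. With the DESeq2 Wald test neither call was made (adjusted p = 0.0515 and 0.0900).

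The comparisons of sperm with MII oocytes and with PN embryos share the sperm libraries and are given side by side. Against MII oocytes, 15 of the 51 tested PC-5p names were called higher in sperm and 30 lower, where 42.2% and 40.7% of all tested names were called in these directions. Against PN embryos, 14 were called higher and 34 lower, where the background was 38.8% and 47.4%. The groups did not overlap for 35 names against MII oocytes (background 81.6%) and for 45 against PN embryos (background 92.2%). For 14 of the 15 higher names and 27 of the 30 lower names the other group was listed at 0, as it was for 11 of the 14 and 29 of the 34 against PN embryos. The filter sets these numbers in part. It acts on CPM, with a cut at 14.4 CPM that equalled 4.16 to 5.49 counts in the MII oocyte libraries and 23.6 to 35.3 counts in the sperm libraries. Of the 41 names listed in every sperm library and no other, 30 were not tested, and all 30 were below the cut in at least 1 sperm library, although 19 had at least 10 counts in every sperm library. With a filter of at least 10 counts in 3 libraries the split turned to 35 higher and 25 lower against MII oocytes, and to 34 and 29 against PN embryos.

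With groups listed at 0 set to the floor, the median log2 ratio of the tested PC-5p names was -2.05 for sperm against MII oocytes, where all tested names had -0.21. Against PN embryos it was -3.02, where all tested names had -0.84. The fitted medians were -5.89 and -7.07 for PC-5p names and 0.00 and -0.52 for all names. These medians depended on the filter, and the fitted ones changed sign with it. With at least 10 counts in 3 libraries the fitted medians of PC-5p names were 5.80 and 1.99 (all names 1.14 and 0.67). Fitting only the groups compared gave fitted medians of 2.70 and -1.55, and no filter gave 0.00 and -3.97. The medians at the floor were -0.60 and -0.13 with at least 10 counts in 3 libraries (all names -0.21 and 0.16). With no filter they were -1.41 and -0.57 (all names -1.29 and -0.69). The floor averaged 15.7 CPM for MII oocytes, 8.50 for PN embryos and 2.66 for sperm. A name listed in sperm only, at a level below the other group's floor, therefore had a negative ratio. These medians give no general direction for PC-5p names in sperm. The PC-3p names were split in a similar way, with 14 higher and 35 lower in each comparison.

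The 3 names listed in all 9 libraries behaved differently from each other. PC-5p-10850_362 was at 198, 247 and 235 CPM in MII oocytes, at 192, 134 and 196 CPM in PN embryos and at 14.3, 5.77 and 8.96 CPM in sperm. All sperm libraries were far below the others, with log2 fold changes of -4.48 ± 0.29 against MII oocytes (edgeR, q = 1.33e-07) and -4.02 ± 0.28 against PN embryos (edgeR, q = 2.53e-07). PC-5p-20628_176 was at 57.6, 16.7 and 58.8 CPM in MII oocytes, at 78.1, 77.7 and 80.4 CPM in PN embryos and at 14.6, 23.1 and 20.4 CPM in sperm. It was lower in sperm than in PN embryos without overlap, by -1.88 ± 0.35 (edgeR, q = 4.61e-04). Against MII oocytes it was called lower (-1.14 ± 0.39, edgeR, q = 0.0195), although one MII oocyte library lay within the sperm range, and this call was lost in 10 of 19 alternatives. Among these, the log2 fold change was -0.67 without the first MII oocyte library (q = 0.212) and -0.77 without the first sperm library (q = 0.116). It was -0.78 without the third MII oocyte library (q = 0.123).

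PC-5p-15282_245 was at 65.5, 66.8 and 20.7 CPM in MII oocytes, at 56.8, 33.1 and 41.5 CPM in PN embryos and at 42.7, 39.2 and 40.3 CPM in sperm. All 3 groups overlapped, and no comparison passed the threshold (edgeR, q = 0.635 for PN embryos against MII oocytes, 0.473 for sperm against MII oocytes and 0.881 for sperm against PN embryos). Another name listed in sperm as well as in oocytes and embryos was PC-5p-15357_244. It leaned to oocytes and embryos, with mean levels of 56.8 CPM for MII oocytes, 100.2 for PN embryos and 1.91 for sperm. It was chosen after its values were seen.

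The names themselves carried numbers that tracked the counts. In PC-5p-2618_1845, for example, the last number equals the total of the counts over the 9 libraries. That equality held for 129 of the 222 names (rows of a repeated name taken once). The total was above the last number for 86 names and below it for 7, with a ratio of total to last number from 0.500 to 4.40 and a median of 1. When the names were ordered by their first number, from 2618 to 312781, the last number rose 0 times, so a later first number never went with a larger last number. The last number ranged from 5 to 1845 with a median of 16, and it was 10 or less for 88 names. What the numbers stand for was not stated in the sources used here.

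**Figure D5:**
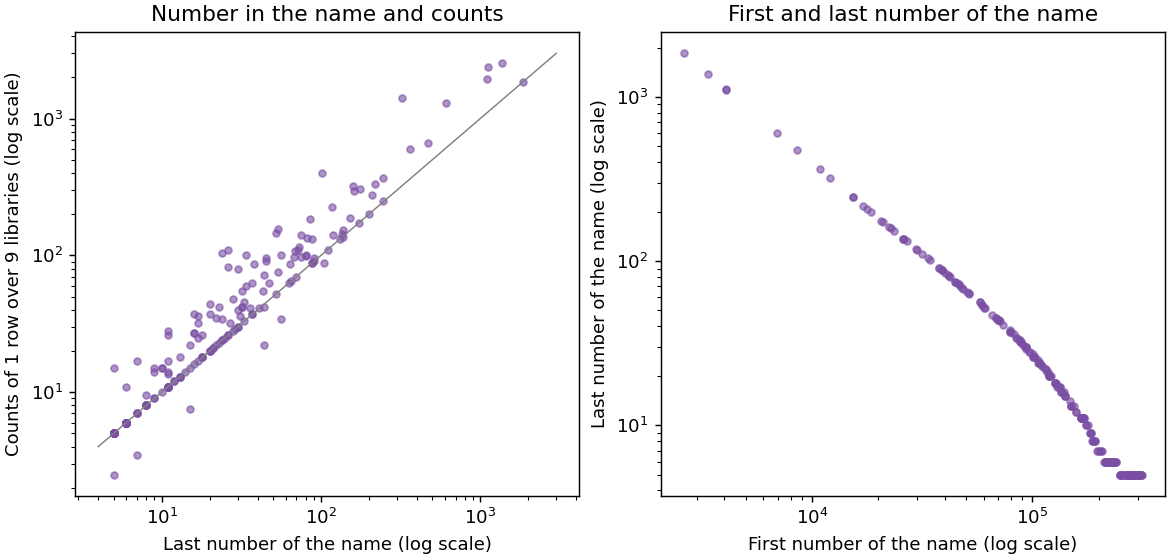
Left, the last number of each PC-5p name against the counts of 1 of its rows summed over 9 libraries, with the line of equality, both log scales; right, the last number against the first number, both log scales. The totals lie on the line for 129 of 222 names, and the last number never rises with the first.

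Identical counts linked some names. Of the 222 names, 79 shared their counts in all 9 libraries with another name, 70 of them with another PC-5p name and 77 with a name of another class. Among the 136 names listed in more than 1 library, 6 did so, and the highest total of any sharing name was 42 counts, so no name described above by its levels in all 3 groups shared its counts. PC-5p-70217_44 was the only name with a PC-3p counterpart of the same numbers. Both were listed at 14, 20 and 8 counts in the sperm libraries and at 0 elsewhere.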

How the data were processed

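Adapters were ligated to both ends of total RNA, which was reverse transcribed, amplified by PCR and size selected. The deposited values are estimated counts of reads per name, which the authors did not normalize, and 15.7% of values above 0 were fractional. The submitters' processing notes name the genome build Sscrofa 11.1, and the aligner and the tool that made the names were not given in the sources used here. Each column was matched to its sample by its library name, with 0 further columns of sample values left over.

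Rows of a repeated name were summed. Estimated counts were rounded to whole numbers and tested over all names by the edgeR 4.0.16 quasi-likelihood method (R 4.3.3), with 9 libraries in 1 fit, group as the factor, TMM normalization, filterByExpr by group (minimum count 10) and Benjamini-Hochberg adjustment (q). Calls required q under 0.05 and a log2 fold change of at least 1 in size, as in the study. The SE given for a log2 fold change was approximate, its absolute value divided by the square root of the F statistic of the edgeR test. Shares of library totals were compared with two-sided exact permutation tests. Depth limits each value, and the floors cover counting error only, since PCR reads without molecular identifiers are not independent molecules. The SDs and SEs also hold the spread between libraries. DESeq2 1.42.0 was an alternative. The code was tested on simulated data.

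Names in the text were the 6 most abundant of each group, in each contrast up to 3 called names per direction with the largest change, no overlap between groups and a mean over all libraries of 10 CPM or more, up to 5 called higher than in MII oocytes in both PN embryos and sperm, and up to 5 listed in all 9 libraries. Others are identified as such. The members and lists were chosen with earlier results of these data known. Replicate libraries differed by more than sampling noise and were counted as labelled.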

Additional observations from a re-analysis of the deposited data

How the results depend on the processing

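The number of PC-5p names called between PN embryos and MII oocytes was 5, and the alternatives left it between 2 and 7. A replicate block lowered it to 2 (PC-5p-8558_472 and PC-5p-17700_209). Among the named small RNAs the block took the calls of PC-5p-41941_81 in that comparison (edgeR, q = 0.0913, log2 fold change 8.48) and of PC-5p-17069_217 (q = 0.0506) and PC-5p-20628_176 (q = 0.0782) between sperm and MII oocytes to above the q threshold. Deviations of same-numbered libraries from their group means correlated between -0.206 and 0.0282. Such correlations cannot show whether same-numbered libraries shared a batch or day, and the labels do not say so. No pairing was used. The block gave 44 calls (12 higher, 32 lower) for sperm against PN embryos and 40 (14 higher, 26 lower) for sperm against MII oocytes. Without any filter on low counts the calls were 93 (47 higher, 46 lower) for sperm against MII oocytes and 109 (49 higher, 60 lower) for sperm against PN embryos. Fitting only the groups compared gave 3 higher and 1 lower for PN embryos against MII oocytes. It gave 24 higher and 21 lower for sperm against MII oocytes, and 25 higher and 32 lower for sperm against PN embryos. Leaving out 1 library at a time gave 3 to 7 calls for PN embryos against MII oocytes, 46 to 61 for sperm against MII oocytes and 46 to 70 for sperm against PN embryos. The lowest of the first was without PN embryo library 3.

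Names listed in every library numbered 13 for MII oocytes and 24 for PN embryos with at least 10 counts in each, and 24 for PN embryos and 11 for sperm with at least 20 CPM. Without 1 library at a time they numbered 26 to 31, 43 to 52 and 54 to 63 for MII oocytes, PN embryos and sperm. The share differences kept their direction under every alternative run. Leaving out 1 library they ranged from 0.0534 to 0.0801 percentage points (PN embryos minus MII oocytes), -0.210 to -0.194 (sperm minus MII oocytes) and -0.280 to -0.254 (sperm minus PN embryos). With the most abundant name of each library taken out of the total they were 0.0932, -0.527 and -0.620. In that alternative the PN embryo and MII oocyte libraries overlapped (exact permutation p = 0.2).

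The log2 fold changes that changed sign were all of uncalled values. Leaving out 1 library at a time, the PN embryo against MII oocyte values ran from -0.163 to 0.462 for PC-5p-60473_52, from -5.32 to 5.93 for PC-5p-17069_217 and from -0.701 to 0.0250 for PC-5p-15282_245. For PC-5p-15282_245 the sperm values ran from -0.498 to 0.180 when set against MII oocytes and from -0.0737 to 0.421 when set against PN embryos. That last value was -0.0723 with library totals alone and -0.195 with repeated names kept once. The cause was not tested. Of 51 results for named small RNAs, 40 kept their direction and call in all alternatives. These 40 include comparisons in which neither group listed the name, such as PC-5p-3381_1379 between PN embryos and MII oocytes. Such comparisons had no direction and could not change their call, so the number overstates the stability. Over all names, the median for sperm against PN embryos was -0.52 under TMM, -0.32 under the size factors of DESeq2 and -0.66 under library totals. For sperm against MII oocytes it was 0.00, 0.12 and 0.00.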
